A study of Drosophila melanogaster with 2 samples.

Results

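The genes described here are the aminoacyl-tRNA synthetase genes of Drosophila melanogaster, 33 of the 13968 protein-coding genes of the annotation. They were chosen by name alone: an amino acid abbreviation followed by RS, with the suffix -m for the mitochondrial enzymes. This gave 18 cytosolic and 15 mitochondrial genes. The occupancy of the protein CG10631 was profiled by ChIP-seq, in which chromatin fragments bound by a protein are precipitated and sequenced. The material was whole prepupae at the white prepupa stage from a transgenic line stably expressing CG10631 with eGFP at its C terminus, precipitated with an anti-GFP antibody, in 2 biological replicates numbered 2 and 3. All samples carry the transgene, and data from flies without it were not analysed here. The sources used here do not give the promoter that drives the transgene, the sex, or the number of animals per sample, and whole animals mix all tissues. With 1 group there is no contrast between samples, so counts of genes and signals are given without a test.

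Aminoacyl-tRNA synthetases join each amino acid to its matching tRNA, the step that fixes the genetic code before the ribosome reads a message. Animal cells run this step both in the cytosol and in mitochondria, and most mitochondrial enzymes are encoded by separate nuclear genes and imported. The enzymes fall into a pair of structural classes, class I and class II, that evolved independently. In mammals several cytosolic enzymes and the scaffold proteins AIMP1, AIMP2 and AIMP3 form a multisynthetase complex, and synthetase genes are targets of the transcription factor ATF4 when amino acids run short.

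A gene is called bound here when a peak summit of the irreproducible discovery rate (IDR) list, the 8399 regions that passed the authors' comparison of the replicates, lay within 500 bp of one of its start sites. Of the 18 cytosolic synthetase genes 8 were bound (44.4%), and of the 15 mitochondrial genes 3 were (20.0%). Among all protein-coding genes the share was 19.4%, so by this rule the mitochondrial share lay at the level of the genome and the cytosolic share above it. The mitochondrial reading depends on the rule. With the merged list the same 8 and 3 genes were bound, against 34.3% of all genes, so there the mitochondrial share lay below the genome. It lay above within 250 bp, at 20.0% against 14.4%, and within 1000 bp, at 26.7% against 23.2%. The bound cytosolic genes were AlaRS, ArgRS, AsnRS, AspRS, GluProRS, GlyRS, IleRS and SerRS. The bound mitochondrial genes were ArgRS-m, CysRS-m and ProRS-m. Taking the 8399 strongest regions of replicate 2 alone, 7 cytosolic and 3 mitochondrial genes were bound against 20.1% of all genes. The same number of regions from replicate 3 gave 7 and 2 genes against 19.7%. Counted only where both replicates placed a strong region, 6 cytosolic and 2 mitochondrial genes remained, against 17.5% of all genes. With replicate 3 alone and with both required, the mitochondrial share was 13.3%, below that of all genes. The counts differed because ArgRS had no region in the list of replicate 2, and SerRS and CysRS-m had none in that of replicate 3. Whether these lists are complete at those places is not known, so the absent regions are not read as a difference in occupancy between replicates.

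The strongest synthetase promoters were those of SerRS, IleRS and GluProRS, the members that ranked among the 1000 strongest IDR peaks. At SerRS, which charges serine tRNA, the peak (chr2L:3037235-3037558, dm6) had a signal of 977 in the merged list, which combines both replicates, and ranked 225. Signal is the authors' value for each peak in the peak caller's own units. Replicate 2 gave 512 at this place, and the nearest summit in the replicate 3 list was 2531 bp away. The summit lay 5 bp inside the 5' UTR of SerRS and also in an intron of CG17260. The start site of CG17260, on the opposite strand, was 13 bp from the summit and 8 bp from that of SerRS. At IleRS, which charges isoleucine tRNA (chr3L:22288397-22288611), the merged signal was 659, with 334 in replicate 2 and 324 in replicate 3 (mean 329 ± 7.17, SD, n = 2). GluProRS encodes a bifunctional enzyme that charges both glutamate and proline tRNA. Its peak (chr3R:23958377-23958647) had a merged signal of 628, with 308 in replicate 2 and 318 in replicate 3 (mean 313 ± 7.08, SD, n = 2). The replicates gave close values at IleRS and at GluProRS, and IleRS was the higher of the pair in both. The bases within 100 bp of these summits are shown because they are the sequences under the strongest synthetase peaks. The windows are chr2L:3037298-3037498 (minus strand), chr3L:22288374-22288574 (plus) and chr3R:23958421-23958621 (minus) in dm6. They are read 5′ to 3′ on the strand of the synthetase gene, and capitals mark matches to the motifs searched (described with the motif counts).
SerRS: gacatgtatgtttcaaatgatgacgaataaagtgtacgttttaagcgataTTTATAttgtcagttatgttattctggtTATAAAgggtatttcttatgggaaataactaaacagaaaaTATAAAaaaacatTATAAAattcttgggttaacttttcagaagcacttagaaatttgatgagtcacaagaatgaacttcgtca
IleRS: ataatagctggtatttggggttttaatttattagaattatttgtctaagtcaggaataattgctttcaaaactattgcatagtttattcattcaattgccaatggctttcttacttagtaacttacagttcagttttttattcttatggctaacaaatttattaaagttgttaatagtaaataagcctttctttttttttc
GluProRS: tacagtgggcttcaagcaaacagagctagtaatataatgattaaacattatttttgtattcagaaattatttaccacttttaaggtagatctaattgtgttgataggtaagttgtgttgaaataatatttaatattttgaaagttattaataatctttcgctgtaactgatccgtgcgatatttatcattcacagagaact
The SerRS window holds 4 matches to the TATA box TATAAA, read on either strand, whereas the IleRS and GluProRS windows hold no match to any motif searched. Among all bound genes 45.0% held a TATA box match in the same window around the summit.

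The other bound cytosolic genes on the arms 2L, 3L and X had weaker peaks. AsnRS, the asparaginyl enzyme (chr2L:19131903-19132342), had a merged signal of 267, with 142 in replicate 2 and 126 in replicate 3. ArgRS, the arginyl enzyme (chrX:15844108-15844547), had 218, with 125 in replicate 3. The replicate 2 list used here had no region within 6980 bp of the ArgRS summit. GlyRS, the glycyl enzyme (chr3L:15094739-15095178), had 206, with 94.1 in replicate 2 and 113 in replicate 3. A second, weaker merged region with a signal of 78.9 had its summit 20 bp inside GlyRS. AlaRS, the alanyl enzyme (chr2L:8381644-8382083), was the weakest bound member, with 144 in the merged list, 75.7 in replicate 2 and 68.1 in replicate 3. Its summit lay 100 bp upstream of the start site, in the 3' UTR of CG13392. Among mitochondrial genes ArgRS-m (chr3R:7886725-7887164) was the strongest, with 291 in the merged list, 135 in replicate 2 and 157 in replicate 3. ProRS-m (chr3L:2651794-2652233) had 188, with 98.9 and 96.9 in replicates 2 and 3. ArgRS-m therefore stood above its cytosolic counterpart ArgRS in the merged list and in replicate 3. The summit windows of AsnRS, AlaRS, ArgRS-m and ProRS-m are shown as cytosolic and mitochondrial examples with different motif matches, on the strand of each gene. They are chr2L:19132023-19132223 (minus), chr2L:8381764-8381964 (minus), chr3R:7886845-7887045 (plus) and chr3L:2651914-2652114 (minus).
AsnRS: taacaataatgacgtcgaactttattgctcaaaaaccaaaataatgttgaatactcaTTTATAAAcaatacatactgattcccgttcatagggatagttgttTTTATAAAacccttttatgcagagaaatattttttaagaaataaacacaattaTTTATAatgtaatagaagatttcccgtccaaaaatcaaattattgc
AlaRS: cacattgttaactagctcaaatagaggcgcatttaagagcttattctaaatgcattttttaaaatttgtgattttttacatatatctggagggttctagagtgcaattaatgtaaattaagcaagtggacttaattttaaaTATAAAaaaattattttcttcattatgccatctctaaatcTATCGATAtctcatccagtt
ArgRS-m: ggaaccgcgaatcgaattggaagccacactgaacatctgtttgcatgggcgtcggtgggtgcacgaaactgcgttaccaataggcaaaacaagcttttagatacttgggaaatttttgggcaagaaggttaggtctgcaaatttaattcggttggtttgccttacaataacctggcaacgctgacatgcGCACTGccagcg
ProRS-m: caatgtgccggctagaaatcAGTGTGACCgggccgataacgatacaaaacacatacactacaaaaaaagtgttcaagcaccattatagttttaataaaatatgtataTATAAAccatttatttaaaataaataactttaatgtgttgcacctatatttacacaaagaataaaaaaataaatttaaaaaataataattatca
AsnRS carries 5 TATA box matches, some of them overlapping on opposite strands. AlaRS carries the DREF element TATCGATA and a TATA box, ProRS-m the core of Ohler motif 1 and a TATA box, and ArgRS-m a single CAGTGC.

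**Figure D1:**
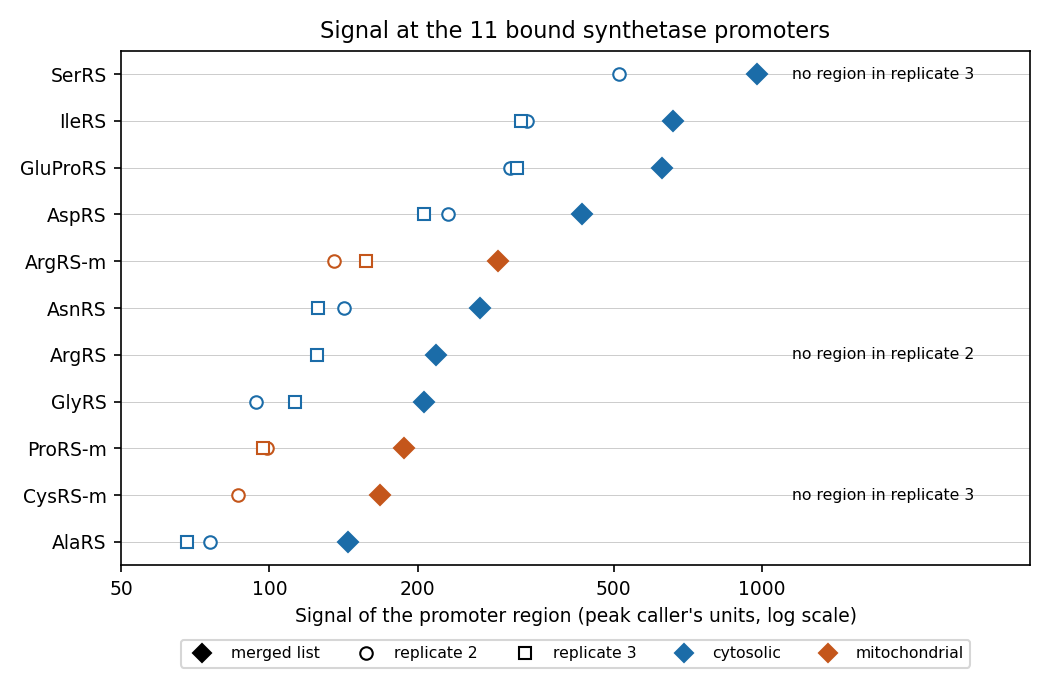
Signal of the promoter peak (horizontal log axis, peak caller's units) at the 11 bound synthetase genes, with filled diamonds for the merged list and open circles and squares for replicates 2 and 3. SerRS is highest at 977 and AlaRS lowest at 144, and 3 genes lack a region in the list of 1 replicate.

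Over the 8 bound genes with a region in both replicate lists, the ratio of replicate 3 to replicate 2 ran from 0.887 at AsnRS to 1.20 at GlyRS, with a median of 0.975. Over all bound genes the median ratio was 1.02, with 0.729 and 1.46 at the 5th and 95th percentiles. Every one of the 8 synthetase ratios lay inside that range, and 3 of the 8 were above 1. Merged signals were 0.959 to 1.01 times the sum of the replicate signals. At the 3 genes with a region in 1 replicate list, the merged signal exceeded the value of that replicate by 465 at SerRS, 93.3 at ArgRS and 81.3 at CysRS-m. A missing region was rare elsewhere: 0.774% of all bound genes had none in the replicate 2 list and 2.10% none in the replicate 3 list. Read depth is unknown, and the cause of the missing regions was not tested.

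The remaining bound members lie on 2R. AspRS, the aspartyl enzyme (chr2R:12879854-12880293), had a merged signal of 432 and 230 in replicate 2. Replicate 3 split the peak into regions of 206 and 178, with summits on either side of the merged summit. The merged summit lay in introns of AspRS and of Nmda1, the neighbour on the opposite strand. CysRS-m, the mitochondrial cysteinyl enzyme (chr2R:14161136-14161575), had a merged signal of 168 and 86.2 in replicate 2. The nearest replicate 3 region was 3743 bp away.

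As a group the bound members were neither strong nor weak. Their median merged signal was 267, against 269 over all 2712 bound genes, whose quartiles were 166 and 486. SerRS exceeded 93.0% of bound genes, IleRS 85.4%, GluProRS 83.7% and AspRS 70.5%, whereas AlaRS exceeded 18.5% and CysRS-m 25.4%. The median was 349 in the 8 cytosolic and 188 in the 3 mitochondrial genes. Over the 6 cytosolic and 2 mitochondrial genes with a region in both replicate lists, the medians were 186 and 117 in replicate 2 and 166 and 127 in replicate 3. The cytosolic median was the higher in both, but the values of the classes overlapped in both. With every gene each list held, the medians were 230 and 98.9 in replicate 2, without ArgRS, and 126 and 127 in replicate 3, without SerRS and CysRS-m.

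**Figure D2:**
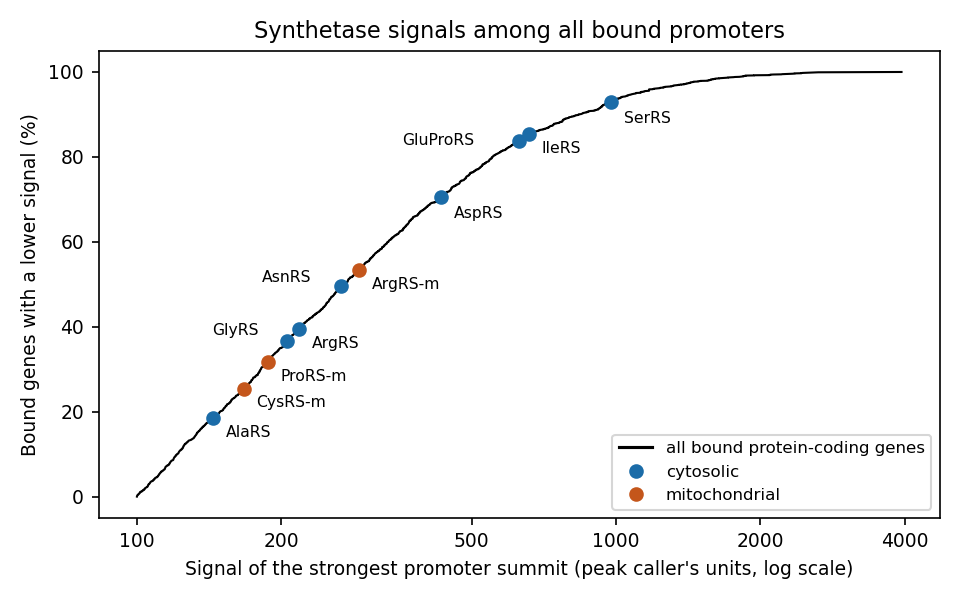
Share of all bound protein-coding genes with a lower signal (vertical axis, percent) against the signal of the strongest promoter summit (log axis, peak caller's units), with the 11 synthetase genes marked on the curve. The members run from AlaRS, above 18.5% of bound genes, to SerRS, above 93.0%.

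Most of the other 22 members had no region at all. In 19 of them, 9 cytosolic and 10 mitochondrial, none of the 4 lists held a summit within 1000 bp of a start site, the 30000 regions of the merged list and of each replicate included. Within 500 bp the count was likewise 19 of the 22, and among all genes that were not bound 72.5% had no summit of any list there. Extending the call to the whole merged list raised the bound share of all genes to 34.3% but added no synthetase gene. The cytosolic genes without a region were CysRS, GlnRS, LeuRS, LysRS, MetRS, ThrRS, TrpRS, TyrRS and ValRS. The mitochondrial genes without a region were AlaRS-m, AsnRS-m, GluRS-m, IleRS-m, MetRS-m, PheRS-m, SerRS-m, TrpRS-m, TyrRS-m and ValRS-m. The nearest IDR summit to the 22 genes lay a median of 7678 bp away, against 8765 bp over all genes that were not bound, and the farthest, at AsnRS-m, 24994 bp.

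Weak or displaced regions were found at the other 3 genes. HisRS had a replicate 2 region of signal 23.6 with its summit 33 bp upstream of the start site, and a merged region of 74.7 at 833 bp downstream. AspRS-m had a replicate 3 region of 22.1, 26 bp upstream. LeuRS-m had a replicate 2 region of 36.2, 10 bp upstream. Each of these promoter regions appeared in the list of 1 replicate and not in the merged list. LeuRS-m also had a strong IDR peak (chr3L:4824913-4825125) with a merged signal of 697, 329 in replicate 2 and 369 in replicate 3, but its summit lay 873 bp upstream. The nearest protein-coding start site to that summit, at 707 bp, was that of Dhc64C, the heavy chain of cytoplasmic dynein. Within 1000 bp of a start site the mitochondrial count was thus 4 of 15, against 23.2% of all genes, and the cytosolic count stayed at 8.

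**Figure D3:**
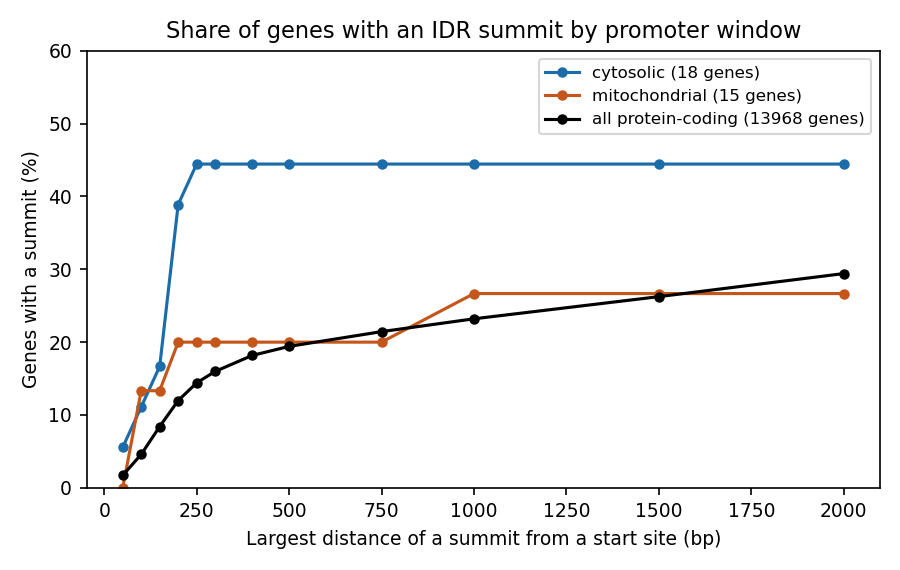
Share of genes with an IDR summit (vertical axis, percent) as the largest allowed distance from a start site grows (horizontal axis, bp), for the 18 cytosolic, 15 mitochondrial and all 13968 protein-coding genes. The cytosolic curve reaches 44.4% at 250 bp and then stays flat, while the curve of all genes goes on rising to 29.4% at 2000 bp.

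Summits at synthetase genes lay close to the start sites. All 11 bound members had a summit within 250 bp, as did 74.2% of all bound genes. As shares of all genes, this was 11 of the 33 members, against 14.4% of protein-coding genes. In 10 of the 11 the summit was upstream of the nearest start site, from 94 bp at CysRS-m to 210 bp at AspRS, with SerRS as the exception. At AspRS that start site, at 12880284, is 1 of 3 and lies inside the gene, which begins at 12877004. The median position over the 11 was 164 bp upstream. Over all bound genes 88.8% of summits were upstream, with the median at 166 bp, so the synthetase summits had the usual position.

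Promoter arrangement went with the bound state. A start site of another protein-coding gene lay within 500 bp at 22 of the 33 members (66.7%), against 30.8% of all protein-coding genes. Such shared promoters were found at 15 of the 18 cytosolic genes (83.3%) and at 7 of the 15 mitochondrial genes (46.7%). Of the 11 bound members, 10 had a shared promoter, and AlaRS was the exception. Among the members with a shared promoter 10 of 22 were bound (45.5%), against 32.3% of all genes of that arrangement. Among those with a single promoter 1 of 11 was bound (9.09%), against 13.7% of all such genes. Within shared promoters the cytosolic and mitochondrial shares were close, at 7 of 15 (46.7%) and 3 of 7 (42.9%). With a single promoter 1 of 3 cytosolic genes and 0 of 8 mitochondrial genes were bound. The closeness within shared promoters depended on the rule. The shares were 46.7% and 14.3% with the 4199 strongest peaks, and 33.3% and 14.3% with the nearest gene only. With replicate 3 alone they were 40.0% and 28.6%, and with both replicates required 33.3% and 28.6%. The mitochondrial share was the higher with replicate 2 alone (40.0% and 42.9%) and within 1000 bp (46.7% and 57.1%). Both were unchanged within 250 bp and with the merged list. The part that promoter arrangement has in the difference between cytosolic and mitochondrial genes was not tested.

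**Figure D4:**
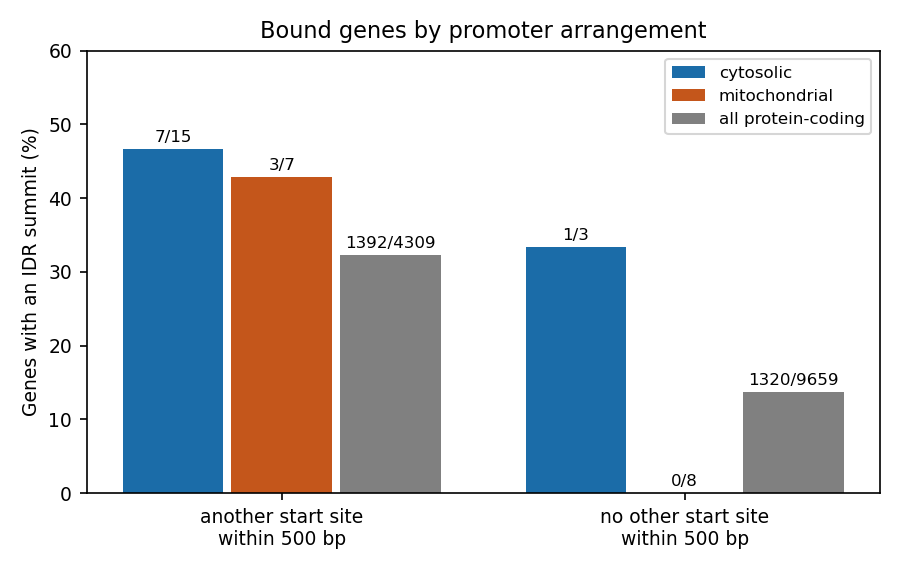
Share of genes bound (vertical axis, percent) among genes with and without a start site of another protein-coding gene within 500 bp, for cytosolic, mitochondrial and all protein-coding genes, with counts above the bars. Within shared promoters the bars stand at 46.7%, 42.9% and 32.3%.

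The neighbour at all 10 shared bound promoters was transcribed from the opposite strand. Neighbour means the other gene whose start site lay nearest the summit. GlyRS, AspRS and ProRS-m each had a further gene with a start site within 500 bp (sstn, Lfg and Snup), left out of these counts. An opposite strand was usual in this arrangement. Counting any gene with a start site within 500 bp, 3878 of all 4309 genes with a shared promoter had one on the opposite strand. So did 21 of the 22 members with a shared promoter, bound or not. The start sites of each bound member and its neighbour were 8 to 470 bp apart, with a median of 286 bp. The summit lay between both start sites at 8 of the 10 genes, the exceptions being AspRS and SerRS. Over all bound genes with a shared promoter, 75.4% had the summit upstream of both genes of an opposite-strand pair. The neighbours included Hem at IleRS, a subunit of the actin-regulating SCAR complex, and AP-1sigma at GluProRS, a subunit of a clathrin adaptor. DCTN6-p27 at AsnRS encodes a dynactin subunit, Plp at GlyRS a centrosomal pericentrin-like protein, and O-fut1 at CysRS-m the enzyme that adds fucose to Notch. Genes known by a CG number lay opposite ArgRS (CG8578), SerRS (CG17260), ArgRS-m (CG17816) and ProRS-m (CG42304).

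The summit was nearer to the synthetase gene at AsnRS, GlyRS, IleRS, SerRS and ArgRS-m. It was nearer to the neighbour at ArgRS, AspRS, CysRS-m and ProRS-m, and at GluProRS it was 130 bp from both start sites. When each summit was counted only for the nearest gene, with ties counted for both, 6 cytosolic genes (33.3%) and 1 mitochondrial gene (6.67%) were bound. The share of all genes was 15.0%. Which gene of a pair a peak acts on was not measured. Shared promoters also occurred without a peak: 8 cytosolic and 4 mitochondrial genes with one were not bound, among them TrpRS, opposite Vps16A, a subunit of a vesicle tethering complex, and LeuRS-m, opposite Dhc64C.

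**Figure D5:**
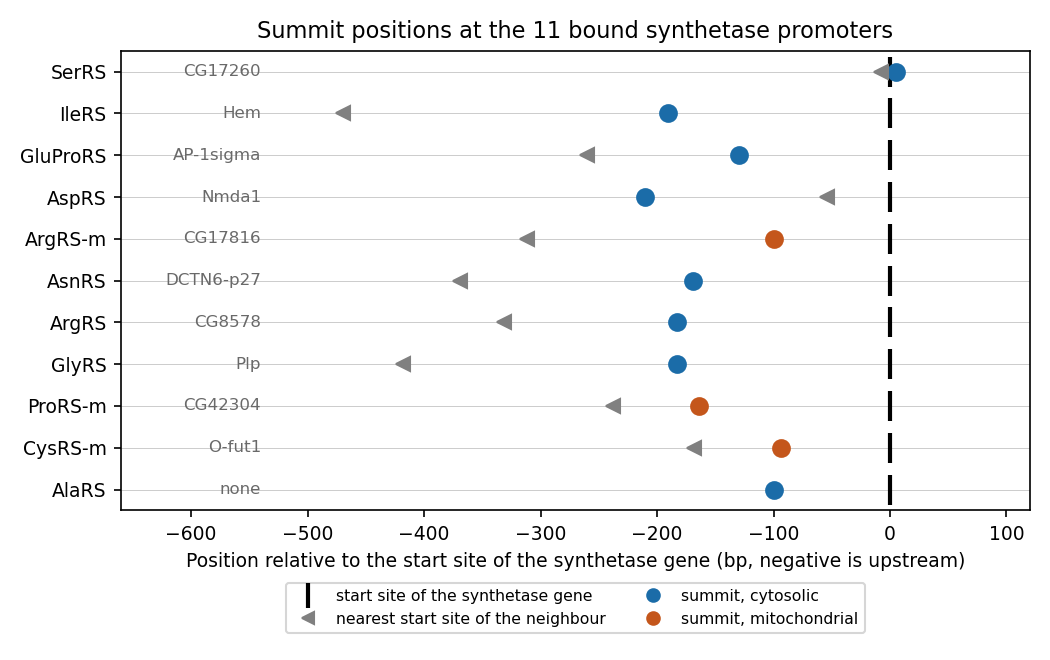
Position of the IDR summit (coloured circle) relative to the start site of the synthetase gene (black bar at 0) and to the nearest start site of the neighbour (grey triangle) for the 11 bound genes, in bp along the synthetase gene. Summits lie between 210 bp upstream and 5 bp downstream, and 8 of them fall between both start sites.

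Both the cytosolic and the mitochondrial gene of an amino acid were bound in 1 case. Separate cytosolic and mitochondrial genes exist for 12 amino acids. For arginine both were bound. The cytosolic gene alone was bound for alanine, asparagine, aspartate, isoleucine and serine, and the mitochondrial gene alone for cysteine. Neither gene was bound for leucine, methionine, tryptophan, tyrosine and valine. For comparison, 44.4% of all cytosolic and 20.0% of all mitochondrial members were bound, and 19.4% of all protein-coding genes. Whether the states of paired genes go together was not tested. At serine, SerRS had the highest signal of the family, whereas SerRS-m was not bound. The nearest IDR summit to SerRS-m lay 7208 bp away, near the median of 7678 bp over the members that were not bound. For glutamate and proline, the bifunctional GluProRS and ProRS-m were bound and GluRS-m was not. The annotation gave no -m gene for glutamine, glycine, histidine, lysine and threonine. Of their 5 genes without the suffix, counted as cytosolic by name alone, 1 was bound, GlyRS, against 19.4% of all protein-coding genes. Where these enzymes act in the cell was not examined.

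By structural class, 5 of 8 cytosolic class II genes were bound (AlaRS, AsnRS, AspRS, GlyRS and SerRS), and 2 of 9 of class I (ArgRS and IleRS), with GluProRS, which joins both classes, left out. The share of all protein-coding genes was 19.4%, and the class I count lay near it. The mitochondrial counts, 1 of 6 in class II and 2 of 9 in class I, lay near it too. Among the 8 enzymes that belong to the multisynthetase complex in mammals, 4 were bound (ArgRS, AspRS, GluProRS and IleRS), as were 4 of the other 10 cytosolic genes. Both groupings were made after the bound genes were known.

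Genes that work beside the synthetases were bound in 2 of 14 cases, near the 19.4% of all protein-coding genes. The subunit genes of the cytosolic phenylalanine enzyme, alpha-PheRS and beta-PheRS, were not bound, nor was PheRS-m, so all synthetase genes for this amino acid lacked a peak. The nearest IDR summit to alpha-PheRS lay 1840 bp away. AIMP1, AIMP2 and AIMP3 had no region in any list within 1000 bp. GatA, GatB and GatC, which encode the mitochondrial transamidase that makes glutaminyl-tRNA, likewise had none. Slimp, a paralogue of the mitochondrial seryl enzyme without charging activity, had a weak peak (chr3R:24148870-24149309) with a signal of 118, 46.5 in replicate 2 and 70.3 in replicate 3. The ratio of 1.51 between its replicates was outside the range of the synthetase genes.

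Of the amino acid starvation genes, crc was bound, the gene of the fly ATF4. Its strongest promoter peak (chr2L:21313840-21314279) had a signal of 199, with 94.4 in replicate 2 and 104 in replicate 3, and another promoter peak had 184. A further crc peak of 222 lay 548 bp from a start site. The start site nearest to the strongest peak is also that of CG46314. Gcn2 and PEK, the kinases that act upstream of ATF4, Thor, the fly 4E-BP, and PPP1R15, a phosphatase subunit, were not bound. Thor had an IDR summit of signal 103 at 758 bp and weaker merged regions of 56.4 and 37.2 within 500 bp. PEK had a merged region of 44.0 at 186 bp.

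Promoter sequence of the family was compared with that of all genes in windows from 250 bases before to 50 bases after the start site. The E-box CAGCTG occurred in 16 of the 33 synthetase promoters (48.5%), against 17.9% of all promoters. It was as frequent in bound members (5 of 11) as in the others (11 of 22). Within 100 bp of the summit, 1 of the 11 bound members held it (ArgRS; 9.09%), close to the 9.66% of all bound genes. The DREF element occurred in 5 promoters (15.2%, against 8.94%): AlaRS, ArgRS, IleRS, PheRS-m and TrpRS. Its core ATCGAT, which lies inside it, occurred in 8 (24.2%, against 22.7%), and 7 of the 8 were cytosolic. CAGTGC, taken from earlier results of these data, occurred in 10 promoters (30.3%, against 15.2%), and GAGAG in 6 (18.2%, against 30.2%). Of the 11 bound promoters, CAGTGC was in 3 (27.3%, against 19.2% of all bound genes) and GAGAG in 4 (36.4%, against 31.5%). Within 100 bp of the summit 1 bound member held CAGTGC (ArgRS-m; 9.09%), against 13.3% of all bound genes. The TATA box was present in 18 (54.5%, against 45.3%), including 7 of the 11 bound promoters (63.6%, against 46.6% of all bound genes). Within 100 bp of the summit 6 of the 11 bound members held it (54.5%), against 45.0% of all bound genes. The core of Ohler motif 1, GGTCACACT, occurred in 3 promoters (9.09%, against 5.87%) and the E-box CACGTG in 2 (6.06%, against 4.26%). An ATF4 type element, TGATGNAAN, was found in 1 promoter, CysRS, which was not bound (3.03%, against 3.96%). GGTATTTT, taken from Ohler motif 6, was also found in 1, SerRS-m (3.03%, against 5.06%). All motifs were searched on both strands, and a match is a description of the letters and not a measured site.

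The TrpRS promoter gives an example of such matches at a gene without a peak. It (chr3R:9266855-9267154, minus strand, dm6) is shown as a member with a shared promoter, a DREF element and no region in any list. Capitals mark TATCGATA, further copies of its core, CAGCTG and GAGAG.
TrpRS: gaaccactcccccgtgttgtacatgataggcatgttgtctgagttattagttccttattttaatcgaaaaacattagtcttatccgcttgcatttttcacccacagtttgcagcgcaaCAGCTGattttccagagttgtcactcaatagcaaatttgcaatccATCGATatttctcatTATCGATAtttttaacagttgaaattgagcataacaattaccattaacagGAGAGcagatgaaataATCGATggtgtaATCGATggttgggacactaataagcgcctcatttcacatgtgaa
Median GC content was 35.7% in bound members, 35.8% in the other members and 38.0% over all promoters. Within 100 bp of the summit the bound members had a median of 27.9% GC, from 19.4% to 47.8%, against 31.8% over all bound genes. The summit windows of GluProRS and IleRS, at 27.9% and 25.4% GC, held none of the motifs. Farther from the summit both promoters held CAGCTG, and that of IleRS also the DREF element, CAGTGC and GAGAG.

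Among the stronger peaks the cytosolic share stayed above that of all genes. With the 4199 strongest IDR peaks, 7 cytosolic genes were bound and AlaRS was lost, against 13.1% of all genes. The same peaks left ArgRS-m as the bound mitochondrial gene, 1 of 15 (6.67%), a share below that of all genes.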

How the data were processed

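Peak lists on dm6 were analysed: the IDR list, a merged list of 30000 regions and a list of 30000 regions for each replicate. The authors' deposited signal per region is the peak caller's own value. Per the file headers accompanying the lists, each replicate list derives from 1 alignment and the merged list from both, in each case with 1 further file. The aligner, caller, IDR threshold and read depth are not stated here by any source. Chromatin was sonicated to a size range of 200 to 800 bp, per the labels' descriptions. The dm3 lists were not used.

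Start sites came from the BDGP6.54 annotation (Ensembl release 115), without transposable elements, and sequence from the RefSeq dm6 assembly; positions are 1-based. Replicate values are the strongest region overlapping the IDR peak. For 1 gene in the annotation without a tagged main transcript the most upstream start site was used for motifs. Computation used Python 3.11.15 and pandas 2.3.3; the promoter rule was tested on simulated data. Of 11 motifs searched, 10 are reported; the letters written for Ohler motif 7 did not match that motif and its counts were left out.

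Members, gene lists and motifs were chosen with earlier results of these data known. Named genes are all members, the listed pathway genes, and neighbours at bound promoters. TrpRS and its neighbour, LeuRS-m and its neighbour, and the structural class and complex groupings were singled out after their values were seen. Alternatives were other windows, peak thresholds, overlap and assignment rules, and each replicate alone.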

Additional observations from a re-analysis of the deposited data

How the results depend on the processing

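No paired analysis was possible because the study has 1 group. The count of bound synthetase genes was 11, ranged from 9 to 10 when 1 replicate was left out, and fell to 7 when a summit counted for the nearest gene only. The cytosolic count of 8 was 7 without either replicate. The mitochondrial count of 3 ranged from 2 to 3 without a replicate and was 1 both with the nearest gene only and with the 4199 strongest peaks. Counting alpha-PheRS and beta-PheRS as cytosolic left 8 bound of 20. Requiring any base of the peak within 500 bp left 11 members bound.

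The share of all protein-coding genes bound, 19.4%, was 14.4% within 250 bp, 23.2% within 1000 bp, 13.1% with the strongest 4199 peaks, 34.3% with the merged list, 21.1% with any base of the peak, 15.0% with the nearest gene only and 17.5% with both replicates required, and ranged from 19.7% to 20.1% with 1 replicate left out. The cytosolic median signal exceeded the mitochondrial by 162; this difference was 131 without replicate 3, where ArgRS had no region, and -1.15 without replicate 2, where SerRS and CysRS-m had none. Over the 8 genes with a region in both lists it was 110.0 by merged signal, 69.2 in replicate 2 and 38.9 in replicate 3. In replicate 3 the mitochondrial median was 127 in both comparisons, over the same 2 genes. The cytosolic median there was 166 over the genes in both lists and 126 once ArgRS was added. Whether the lists used here are complete at the absent regions is not known. Alternatives requiring both replicates, comparing genes in both lists, adding the phenylalanine subunits and leaving out a replicate for the signal difference were chosen after seeing the data. Signals near the list limits rest on an unknown depth.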

Other observations

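Of the 283 tRNA genes that the synthetases serve, 16 had an IDR summit within 500 bp (5.65%), against 19.4% of protein-coding genes. For the 9 amino acids whose cytosolic synthetase gene was bound, 4 of 154 tRNA genes did (2.60%), and for the other 11 amino acids 12 of 129 (9.30%). Cysteine had the most, 3 of 7 genes. No tRNA gene was bound for alanine, asparagine, aspartate, glycine, isoleucine and serine, whose synthetase genes were bound, nor for threonine (17 genes) and tryptophan (8 genes), whose synthetase genes were not. These counts were made after the synthetase states were known and were not tested.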
